A study of Mus musculus with 8 samples.

Results

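A set of 40 genes of glycolysis and of the response to low oxygen were followed in mouse embryonic fibroblasts (MEFs) that had, lacked or regained TAF4, one of the proteins of TFIID, the complex that recognises core promoters. They were chosen by name, with earlier results of these data known. All 40 were found by symbol among the 23235 symbols of the deposited table, each at a single locus and as 63 transcripts in all. Values are FPKM, fragment numbers divided by transcript length and by the size of the library, summed over the transcripts of a gene. Of the 40, 39 passed the filter on low values, which asked for at least 1 FPKM in at least 2 libraries. Aldoc, the brain-type aldolase, lay between 0.0936 and 0.316 FPKM in the 8 libraries and was not tested. Egln3 passed the filter through the libraries labelled knockout alone and Slc2a3 through the wild-type rescue clones alone, so each had to differ in the group that let it pass.

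The MEFs were of strain C57BL/6, and 2 libraries were sequenced from each of 4 groups. Control cells carried a floxed and a null allele of Taf4 (Taf4 loxp/-), although another label field calls the same libraries wild type. Knockout cells were Taf4 -/-. The remaining groups were Taf4 -/- cells that stably expressed human TAF4, either the full-length protein (hTAF4 wt, here the wild-type rescue) or a form without its TAFH domain (hTAF4 Δ, here the TAFH-deleted rescue), a domain that contacts activators such as E proteins. Each rescue library came from a different clone, numbered 1 and 2. The promoter that drives the human TAF4 is not given in the sources used here, nor is the origin of the replicate libraries of control and knockout, so p-values measure the spread between these samples. Taf4a, the mouse Taf4 gene, was at 11.1 and 11.5 FPKM in the control libraries, 12.5 and 12.4 in those labelled knockout, 14.5 and 15.0 in the wild-type and 14.7 and 19.2 in the TAFH-deleted clones. Its level thus does not set the libraries labelled knockout apart, and since the deleted exons are not given in the sources used here it does not check the labels. Knockout below means the libraries so labelled. No oxygen or drug treatment is named for any group.

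Glycolysis splits glucose into pyruvate, and in cells that lean on it much of the pyruvate is reduced to lactate and exported with a proton. When oxygen is scarce, hypoxia-inducible factor (HIF), a pair of HIF-1α and ARNT, escapes hydroxylation by the EGLN prolyl hydroxylases and binds a short core motif, ACGTG or GCGTG, near genes for glucose uptake, glycolysis, lactate export, pH control, mitophagy and collagen hydroxylation. Fibroblasts express most of these genes also in ordinary culture.

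The promoters of 4 genes are shown because 3 of them (Slc16a3, Car9 and Egln3) had the largest differences between group means of all 40 on the log2(FPKM + 1) scale and the fourth, Slc16a1, is a paralog of Slc16a3 that is expressed in all groups. The sequences are RefSeq's on GRCm38.p6, the 250 bases before the transcription start, written 5′ to 3′ on the gene's strand. Capitals mark the HIF core ACGTG or GCGTG on either strand, read as CACGT or CACGC where it lies on the opposite strand. Slc16a3 (chr11:120948817-120949066, plus strand) encodes the lactate exporter MCT4, Car9 (chr4:43506776-43507025, plus strand) a carbonic anhydrase of the cell surface, Egln3 (chr12:54203875-54204124, minus strand) a HIF prolyl hydroxylase and Slc16a1 (chr3:104638414-104638663, plus strand) the lactate transporter MCT1.
Slc16a3: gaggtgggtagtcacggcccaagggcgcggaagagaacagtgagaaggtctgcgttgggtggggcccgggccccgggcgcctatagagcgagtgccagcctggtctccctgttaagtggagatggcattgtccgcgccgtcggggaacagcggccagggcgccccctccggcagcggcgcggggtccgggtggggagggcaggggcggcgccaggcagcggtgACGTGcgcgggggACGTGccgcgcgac
Car9: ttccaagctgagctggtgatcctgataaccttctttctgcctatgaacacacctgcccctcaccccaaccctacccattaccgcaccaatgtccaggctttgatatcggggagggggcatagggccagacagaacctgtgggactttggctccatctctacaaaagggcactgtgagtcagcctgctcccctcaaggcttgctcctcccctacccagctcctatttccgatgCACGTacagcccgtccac
Egln3: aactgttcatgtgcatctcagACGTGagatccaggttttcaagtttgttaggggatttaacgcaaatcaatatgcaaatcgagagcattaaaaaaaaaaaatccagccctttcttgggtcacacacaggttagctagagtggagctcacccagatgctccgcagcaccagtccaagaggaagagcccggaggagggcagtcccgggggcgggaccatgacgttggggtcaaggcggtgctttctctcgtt
Slc16a1: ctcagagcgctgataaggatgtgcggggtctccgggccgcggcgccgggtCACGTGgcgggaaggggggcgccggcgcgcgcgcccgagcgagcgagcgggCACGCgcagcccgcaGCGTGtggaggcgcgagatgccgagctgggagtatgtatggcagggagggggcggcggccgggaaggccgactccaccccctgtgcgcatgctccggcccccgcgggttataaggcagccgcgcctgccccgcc
The Slc16a3 promoter holds ACGTG 27 and 14 bases before the start. In Car9 a single match begins 18 bases before the start, and in Egln3 229 bases before it. The Slc16a1 promoter has matches that begin 200, 199, 149 and 134 bases before the start, the first pair of which overlap in the palindrome CACGTG.

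RefSeq promoters were matched for 37 of the 40 genes, 54 promoters in all, with Ero1l found as Ero1a and Pkm2 as Pkm. Slc2a3, Bnip3l and Ndrg1 were not matched. ACGTG lay in 27 of the 54 promoters (50%), which belong to 24 genes, against 16.6% of all 32851 promoters of the same length. ACGTG or GCGTG lay in 42 (77.8%), against 38.6%. The promoters of these genes are also rich in CpG, with a median of 14 per promoter against 6 over all, and among all promoters with at least 14 the share with ACGTG was 25.0%. The genes were chosen for glycolysis and the response to low oxygen, so an excess of the HIF core among them supports nothing. Some promoters of the same gene overlap and share matches, as in Aldoa and Eno1. No share at like CpG was computed for ACGTG or GCGTG together. A match of these letters is a description of the sequence and shows no binding.

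The FPKM steps of low genes gave implied totals of 14270000 to 17300000 fragments per library, with 17260000 and 17300000 in control, 14810000 in both knockout libraries, 17070000 and 16910000 in the wild-type rescue and 14270000 and 16240000 in the TAFH-deleted rescue. The 2 control libraries, and likewise the 2 knockout libraries, differed by less than the sampling noise of their fragments. Their chi-square per gene was 0.737 ± 0.0345 and 0.615 ± 0.0340 (SE), where separately sampled libraries would give about 1. Each pair may be 1 library split or sequenced again, which the labels do not say. Each of these pairs was therefore averaged and counted as 1 sample. The fit therefore held 6 samples, and its spread came from the rescue clones, which differed by more than counting noise (1.57 ± 0.0653 and 2.45 ± 0.105). Fibroblast markers summed to 943 to 944 FPKM in control, 973 to 976 in knockout, 937 to 959 in the wild-type and 872 to 968 in the TAFH-deleted rescue, with 9 of 10 at 1 FPKM or more in some library. All 6 endothelial and all 6 muscle markers stayed under 1 FPKM in every library, as did 5 of 8 macrophage and 5 of 6 epithelial markers. The macrophage list summed to 6.65 to 7.86 FPKM in control, 3.31 to 3.36 in knockout, 6.15 to 10.6 in the wild-type and 1.26 to 4.55 in the TAFH-deleted rescue, and the epithelial list to 3.98 to 4.65, 2.66 to 3.87, 0.428 to 0.872 and 1.20 to 4.87. The part of these cells in the results below was not tested.

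Several glycolytic genes share sequence with processed copies elsewhere in the mouse genome. Gapdh, the abundant glyceraldehyde phosphate dehydrogenase, stood between 0.0682 and 0.599 FPKM and was left out as unusable. Of its 36-base stretches 83.7% also occur in annotated transcripts of other genes, 287 of them pseudogenes. The same share was 75.9% for Eno1, 68.2% for Pgk1, 60.3% for Bnip3, 46.6% for Pkm2, 42.0% for Pgam1, 37.4% for Ldhb, 33.7% for Ldha and at most 28.3% for the other members. It was 0 for Slc16a3, Slc16a1 and Egln3 and 0.8% for Car9. Levels of the genes with high shares are therefore uncertain.

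Across the 39 tested genes, most were higher in the libraries labelled knockout than in control and lower again in both rescues. In knockout 32 of 39 (82.1%) were higher, with a median log2(FPKM + 1) difference of 0.35, against 45.1% and -0.035 over all 12025 tested genes. The genes were chosen with earlier results of these data known, so such shares describe them and no test of the set was run. Both knockout libraries lay above all 6 other libraries for 25 of 39 genes (64.1%), an order that 9.01% of all tested genes showed. Egln3 is among the 25, but it passed the filter through knockout alone, so its order was fixed in advance. The reverse order held for 1 gene, Eno2, against 10.3% of all genes. The excess was thus in one direction, small for most genes and large for 3, among them Egln3, as the plot of differences from control shows. The FPKM of abundant genes may be capped, as described below, and the part of this in the small differences was not tested. Fewer cells of a type and less RNA per cell cannot be told apart in these bulk libraries.

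**Figure D1:**
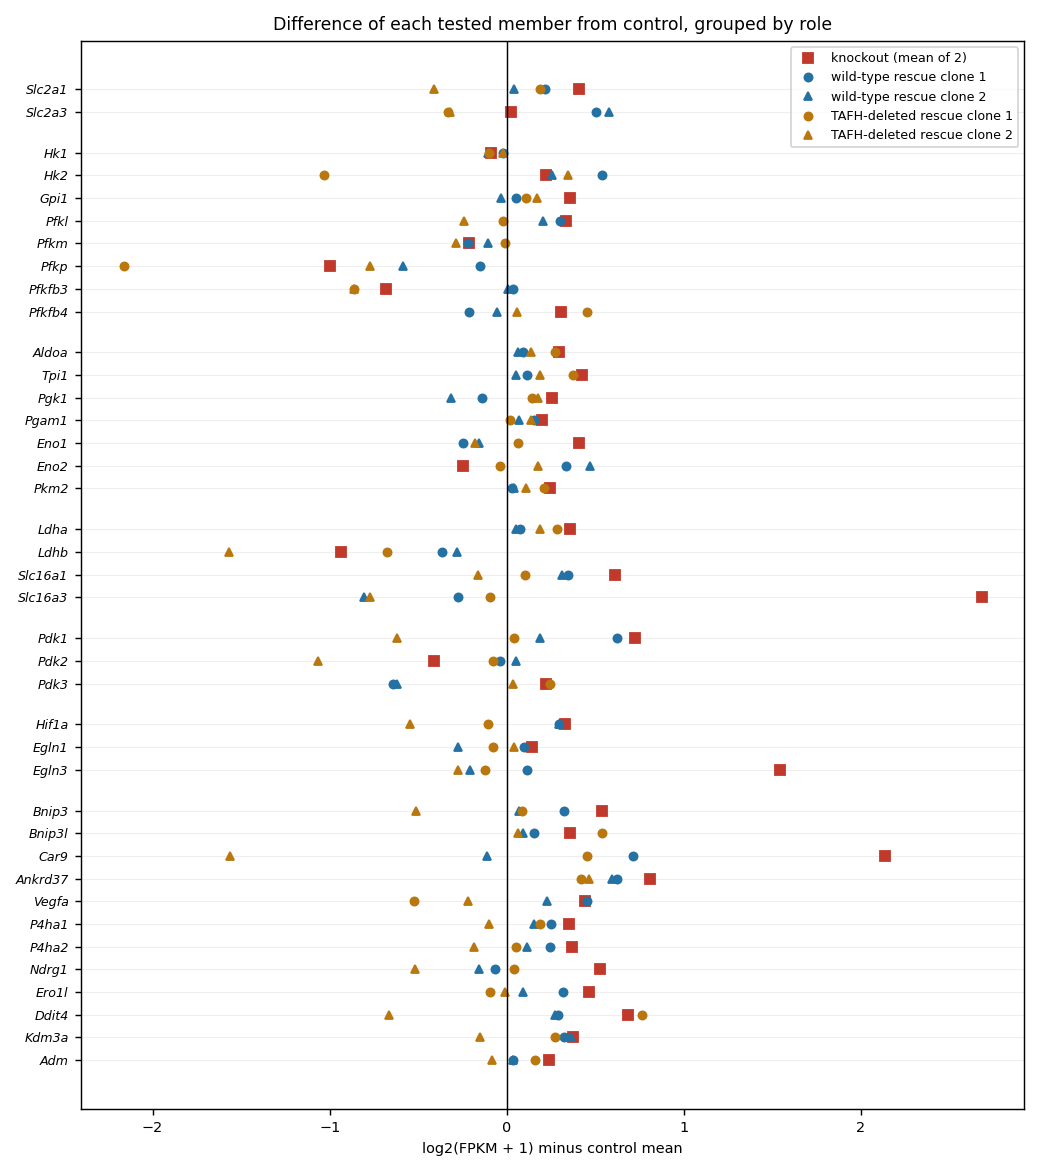
Difference of each of the 39 tested genes from the control mean on the log2(FPKM + 1) scale (x axis), grouped by role from top to bottom. Red squares are the knockout mean and circles and triangles are rescue clones 1 and 2 (blue, wild-type TAF4; brown, TAFH-deleted); Slc16a3, Car9 and Egln3 stand out in knockout at 2.68, 2.13 and 1.54, while their rescue clones are at most 0.71.

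None of the 39 genes passed limma's test at an adjusted p under 0.05 in any of the 5 comparisons. The test called 0% of all genes in knockout against control, 0% in wild-type rescue against knockout, 0% in TAFH-deleted rescue against knockout, 2.62% in TAFH-deleted against wild-type rescue and 0% in wild-type rescue against control. At an unadjusted p under 0.05 in limma there were 1108, 1602, 789, 3465 and 1340 of all 12025 tested genes in the same order. Of the 39 genes there were 10, 10, 11, 7 and 3. Egln3 enters these counts in the comparisons with knockout and Slc2a3 in those with the wild-type rescue. Each passed the filter through that group alone. The call depends on how the libraries are counted. With all 8 libraries taken as separate samples, limma called 16, 14, 9, 9 and 5 of the 39. Over all 12025 tested genes it then called 2857, 2998, 1074, 4566 and 2429. For these and the unadjusted counts, the share of the 39 was below that of all genes in TAFH-deleted against wild-type rescue. The same held for wild-type rescue against control. The values below are therefore differences between named libraries, given with their size and spread.

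On the log2(FPKM + 1) scale the lactate exporter Slc16a3 had the largest difference of the 39 genes, while Egln3 had a larger ratio. Slc16a3 was at 2.15 and 2.25 FPKM in control, 19.4 and 19.6 in knockout, 1.65 and 0.831 with wild-type TAF4 and 2.00 and 0.875 with TAFH-deleted TAF4. The knockout libraries were 8.87 times the control mean, and all 4 rescue clones were below control, with no overlap between knockout and any other group. On the log2 scale the difference was 2.68 ± 0.48 (SE, adjusted p = 0.270 in limma) in knockout against control, -3.22 ± 0.42 (adjusted p = 0.207) in wild-type rescue against knockout and -3.11 ± 0.42 (adjusted p = 0.437) in TAFH-deleted rescue against knockout. The rescue forms differed by 0.11 ± 0.34, less than the spread between clones. Its paralog Slc16a1, which carries lactate in either direction, was at 44.7 and 45.3 FPKM in control and 69.5 and 69.3 in knockout. It was at 57.4 and 56.2 in the wild-type and 48.4 and 40.2 with TAFH-deleted TAF4. Slc16a1 was thus 1.54 times control in knockout, in between with wild-type TAF4 and around control with TAFH-deleted TAF4.

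The lactate dehydrogenase subunits differed in direction. Ldha, the subunit that favours lactate formation, was at 62.0 and 61.0 FPKM in control and 78.6 and 79.6 in knockout, and at 64.7, 63.7, 75.1 and 70.0 in the rescue clones. Ldhb, the subunit of oxidative tissues, was at 31.5 and 33.4 in control, 15.8 and 17.2 in knockout, 25.0 and 26.5 with wild-type TAF4 and 19.9 and 10.3 with TAFH-deleted TAF4. Ldhb in knockout was 0.508 of control (log2 difference -0.94 ± 0.46, adjusted p = 0.626 in limma), and the wild-type clones lay in between. TAFH-deleted clone 2 was the lowest library for Ldhb.

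**Figure D2:**
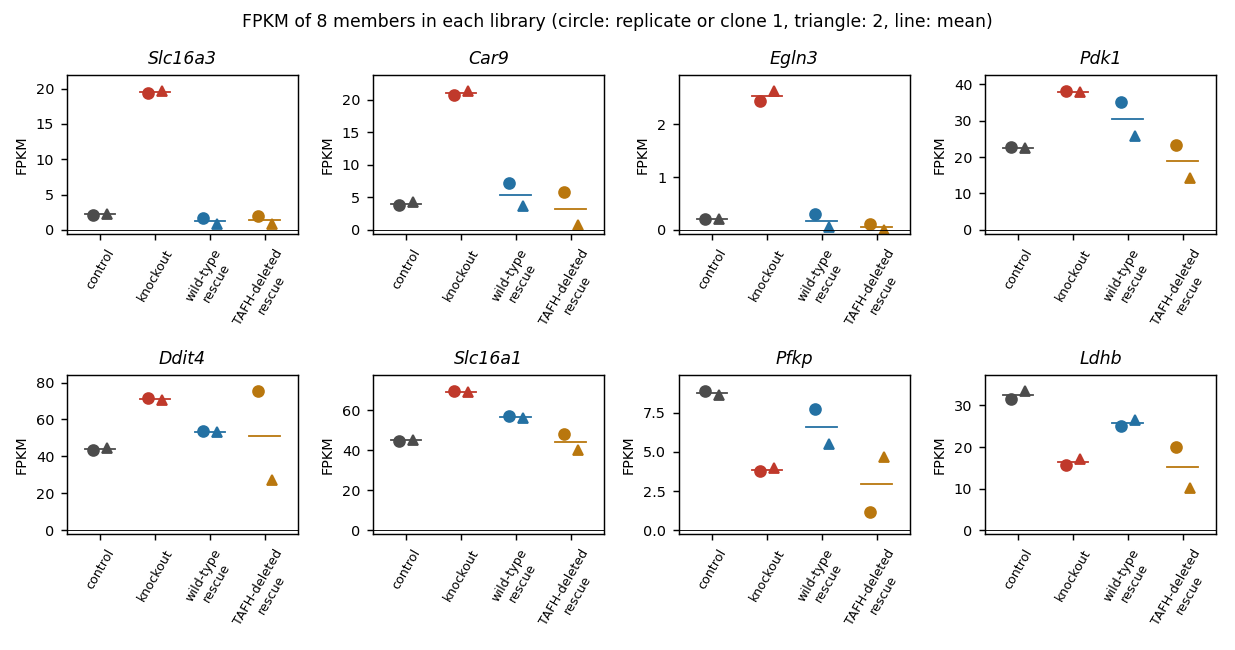
FPKM (y axis, linear) of 8 genes in each of the 8 libraries; circles are replicate or clone 1, triangles replicate or clone 2, and lines group means. Slc16a3, Car9 and Egln3 are high in knockout alone, Pfkp and Ldhb are lower in knockout than in control, and for Ddit4 TAFH-deleted clone 1 (75.2) is the highest library and clone 2 (27.3) the lowest.

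Among the genes of oxygen sensing, Egln3 had the largest ratio. It was listed at 0.211 and 0.210 FPKM in control, 2.43 and 2.62 in knockout, 0.308 and 0.0478 with wild-type TAF4, and 0.113 and 0 with TAFH-deleted TAF4. Knockout was 12 times control, on a low level in every group. The log2 difference was 1.54 ± 0.25 in knockout against control (adjusted p = 0.242 in limma), which supports nothing since Egln3 was tested through its knockout libraries alone. Egln1, the main HIF prolyl hydroxylase, was at 34.6 and 35.4 FPKM in control and 39.5 and 38.0 in knockout, a log2 difference of 0.14 ± 0.22 that is smaller than its error. Hif1a, which encodes the regulated subunit, was at 58.2 and 58.1 in control, 73.3 and 73.2 in knockout, 71.5 and 71.5 with wild-type TAF4 and 54.0 and 39.5 with TAFH-deleted TAF4. The wild-type clones thus stayed near knockout for Hif1a, and both TAFH-deleted clones lay below control. The direct comparison of the rescue forms gave -0.62 ± 0.17 for Hif1a (adjusted p = 0.110 in limma).

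All 12 of the remaining hypoxia response genes were higher in knockout than in control, by a median of 0.45 on the log2 scale, and all 12 had lower means in both rescues than in knockout. Car9, which acidifies the cell surface by hydrating carbon dioxide, was at 3.80 and 4.25 FPKM in control, 20.8 and 21.3 in knockout, 7.24 and 3.64 with wild-type TAF4 and 5.87 and 0.702 with TAFH-deleted TAF4. Knockout was 5.23 times control, with no overlap with any other group, but the clones of each rescue differed among themselves by more than their distance from control. The log2 difference was 2.13 ± 1.09 in knockout against control, with an adjusted p of 0.632 in limma.

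Ankrd37, a small ankyrin repeat protein, was at 6.13 and 6.85 FPKM in control, 12.8 and 11.4 in knockout, 10.5 and 10.3 with wild-type TAF4 and 9.01 and 9.33 with TAFH-deleted TAF4. All 4 rescue clones lay between control and knockout. Bnip3, a mitophagy receptor, was at 17.8 and 17.9 in control, 26.7 and 26.1 in knockout, 22.6 and 18.8 in the wild-type and 19.0 and 12.2 with TAFH-deleted TAF4. Its relative Bnip3l did not follow that order, since TAFH-deleted clone 1, at 51.2, was above knockout, at 44.8 and 45.2.

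Vegfa, the endothelial growth factor, was at 43.4 and 43.2 FPKM in control, 58.6 and 59.7 in knockout, 59.6 and 50.8 with wild-type TAF4 and 29.8 and 37.1 with TAFH-deleted TAF4. As for Hif1a, the TAFH-deleted clones were the 2 lowest libraries, and the difference between rescue forms was -0.71 ± 0.15 (adjusted p = 0.081 in limma). Ddit4, a stress-induced inhibitor of mTORC1, was at 43.3 and 44.4 in control and 71.6 and 70.4 in knockout. It was at 53.7 and 53.2 with wild-type TAF4 and at 75.2 and 27.3 with TAFH-deleted TAF4, so those 2 clones were the highest and the lowest of all libraries.

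The other 7 genes of that group had ratios of knockout to control from 1.18 to 1.45, beside 1.37 for Vegfa. Ndrg1, a stress-induced gene, was at 1.45, Ero1l, the oxidase that serves disulfide formation, at 1.39 and Kdm3a, a histone demethylase, at 1.31. P4ha1 and P4ha2, catalytic subunits of the collagen prolyl hydroxylase, were at 1.28 and 1.29, Bnip3l at 1.29 and Adm, the vasodilator peptide adrenomedullin, at 1.18. Ndrg1 was at 43.0 and 43.8 FPKM in control, 62.7 and 63.3 in knockout, 41.4 and 38.8 in the wild-type and 44.7 and 30.0 with TAFH-deleted TAF4. For Ndrg1 no rescue clone exceeded 44.7, so that all 4 were at or below about the control level. Ero1l was at 29.9 and 29.2 in control, 41.1 and 41.2 in knockout, 37.0 and 31.5 in the wild-type and 27.7 and 29.3 with TAFH-deleted TAF4.

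Of the 2 glucose transporters among these genes, Slc2a1 (GLUT1) had the higher transcript level, and uptake was not measured. Slc2a1 was at 48.2 and 48.4 FPKM in control, 64.9 and 63.6 in knockout, 56.3 and 49.6 in the wild-type and 55.2 and 36.1 with TAFH-deleted TAF4. Slc2a3 (GLUT3) was low, at 0.741 and 0.908 in control, 0.845 and 0.863 in knockout, 1.59 and 1.72 with wild-type TAF4 and 0.448 and 0.459 with TAFH-deleted TAF4. Knockout did not differ from control for Slc2a3 beyond the spread (0.023 ± 0.21), and the rescue forms lay on opposite sides of it.

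The 8 genes of upper glycolysis were divided, 4 higher and 4 lower in knockout. Pfkp, the platelet-type phosphofructokinase, was at 8.85 and 8.60 FPKM in control, 3.78 and 3.96 in knockout, 7.74 and 5.49 with wild-type TAF4 and 1.17 and 4.69 with TAFH-deleted TAF4. The wild-type clones lay between knockout and control, and the TAFH-deleted clones on both sides of knockout. The log2 difference was -0.998 ± 0.75 in knockout against control and -1.10 ± 0.53 in TAFH-deleted against wild-type rescue, with adjusted p of 0.712 and 0.254 in limma. Of the other phosphofructokinase subunits, Pfkl, the liver type, was at 46.3 and 47.2 in control and 59.4 and 59.2 in knockout, and Pfkm, the muscle type, at 46.2 and 44.7 and at 39.0 and 39.3. The 3 subunits of the same enzyme therefore did not share a direction.

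Pfkfb3, which makes the allosteric activator fructose 2,6-bisphosphate, was at 10.1 and 9.58 FPKM in control, 5.78 and 5.70 in knockout, 10.1 and 9.90 with wild-type TAF4 and 4.95 and 4.97 with TAFH-deleted TAF4. The wild-type clones were at the control level and the TAFH-deleted clones below knockout, with the clones of each form close together. The difference between the rescue forms was -0.88 ± 0.16 (adjusted p = 0.070 in limma). Pfkfb4, an enzyme of the same family, was at 5.58 and 6.08 in control and 7.49 and 7.42 in knockout. Hk1, the hexokinase of most tissues, stayed between 45.4 and 49.1 in all libraries. Hk2, the inducible hexokinase, was at 10.1 and 10.3 in control, 11.8 and 12.2 in knockout, 15.2 and 12.3 with wild-type TAF4 and 4.45 and 13.2 with TAFH-deleted TAF4. The low Hk2 value came from TAFH-deleted clone 1 alone. Gpi1, glucose phosphate isomerase, was at 32.2 and 32.3 in control, 41.5 and 41.7 in knockout and between 31.5 and 36.5 in the 4 rescue clones.

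Of the 7 tested genes of lower glycolysis, 6 were higher in knockout than in control and had lower means in both rescues than in knockout. Aldoa, the aldolase of most tissues, was at 87.1 and 88.0 FPKM in control, 107 and 108 in knockout, 93.3 and 91.5 in the wild-type and 106 and 96.3 with TAFH-deleted TAF4. Tpi1, triose phosphate isomerase, was at 54.0 and 53.5, 72.2 and 72.7, 58.2 and 55.8, and 69.9 and 61.4 in the same order. For both, the wild-type clones lay nearer to control and TAFH-deleted clone 1 nearer to knockout. Actb, a gene outside the set, also lay so, as did the limit described below for abundant genes. The part of that limit in these values was not tested. The ratio of knockout to control was 1.24 for Pgk1, 1.21 for Pgam1, 1.37 for Eno1 and 1.19 for Pkm2, all with 42.0% or more of their stretches shared with other genes. Pgk1 is X-linked, and its difference of -0.48 ± 0.22 in wild-type rescue against knockout stands beside a median of -0.55 over all tested X-linked genes, whose part in it was not tested. Eno2, the neuronal enolase, was the exception, at 8.98 and 9.02 in control, 7.32 and 7.51 in knockout, 11.6 and 12.8 in the wild-type and 8.72 and 10.3 with TAFH-deleted TAF4. Both knockout libraries were the lowest for Eno2.

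The table lists 2 transcripts of the pyruvate kinase gene under the symbol Pkm2, which differ in a pair of mutually exclusive exons, the upstream M1 exon of adult muscle and the downstream M2 exon of proliferating cells. The M2 transcript was at 25.3 and 26.3 FPKM in control, 37.0 and 38.0 in knockout, 24.0 and 25.1 with wild-type TAF4 and 42.0 and 34.2 with TAFH-deleted TAF4. The M1 transcript was at 36.3 and 35.0, 35.95 and 35.1, 38.6 and 38.0, and 29.0 and 32.1. The higher sum in knockout thus lay in the M2 transcript. Its share of both was 41.1% and 42.9% in control, 50.7% and 51.9% in knockout, 38.4% and 39.8% in the wild-type and 59.1% and 51.6% with TAFH-deleted TAF4. Knockout did not overlap with control or the wild-type rescue, and no test was run on single transcripts. Of the stretches that tell the 2 exons apart, 47.4% of the M2 exon's and 0% of the M1 exon's also occur in transcripts of other genes, so that the estimated split is uncertain.

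**Figure D3:**
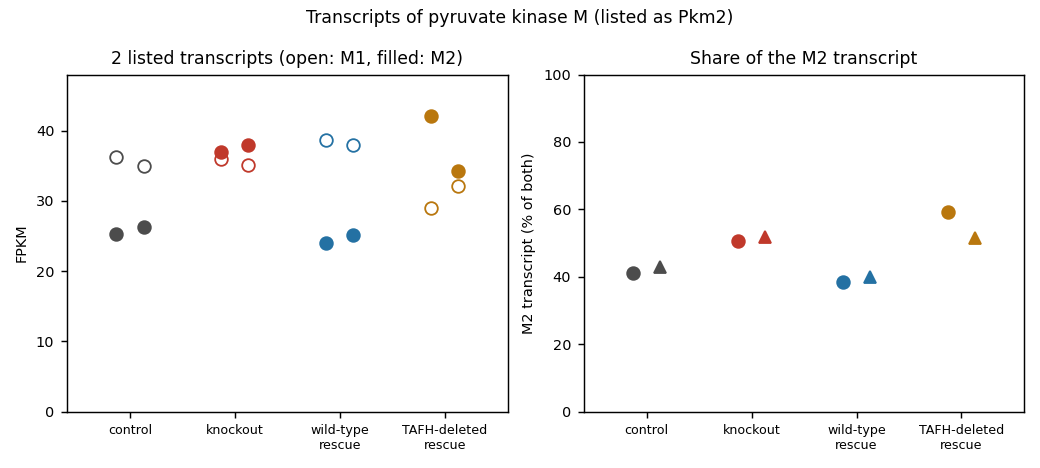
Left, FPKM of the M1 (open circles) and M2 (filled circles) transcripts of pyruvate kinase M in each library; right, M2 as a percent of both, with circles and triangles for replicate or clone 1 and 2. The M2 share is 50.7% to 59.1% in the knockout and TAFH-deleted libraries and 38.4% to 42.9% in the control and wild-type rescue libraries.

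The pyruvate dehydrogenase kinases, which inhibit pyruvate dehydrogenase and so hold back the conversion of pyruvate to acetyl-CoA, did not share a direction. Pdk1 was at 22.7 and 22.5 FPKM in control, 38.0 and 37.9 in knockout, 35.2 and 25.8 with wild-type TAF4 and 23.2 and 14.3 with TAFH-deleted TAF4. Knockout was 1.68 times control, wild-type clone 1 was near knockout and TAFH-deleted clone 2 below control. The log2 difference of TAFH-deleted rescue against knockout was -1.02 ± 0.35, with an adjusted p of 0.747 in limma. Pdk2 went the other way, at 18.2 and 18.1 in control, 13.2 and 13.6 in knockout, 17.6 and 18.9 in the wild-type and 17.2 and 8.14 with TAFH-deleted TAF4. Pdk3 was at 37.6 and 37.4 in control, 43.6 and 44.2 in knockout, 23.6 and 24.1 in the wild-type and 44.5 and 38.5 with TAFH-deleted TAF4. The wild-type clones were the 2 lowest libraries for Pdk3, and the difference between rescue forms was 0.77 ± 0.11, whose adjusted p of 0.0544 in limma was the smallest of any member. Pdk3 lies on the X chromosome. The median difference of wild-type rescue against knockout was -0.55 over the 381 tested X-linked genes and -0.026 over the other 11644, and the part of this in the Pdk3 value was not tested.

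Large differences were few among these genes. In knockout 3 of 39 (Slc16a3, Car9 and Egln3, the last of which passed the filter through knockout alone) were at least 2-fold higher than control on the log2(FPKM + 1) scale and 0 at least 2-fold lower, against 0.798% and 5.76% of all genes. In the wild-type rescue the same 3 were at least 2-fold below knockout (1.1% of all genes) and 0 were at least 2-fold above it (2.85%). In the TAFH-deleted rescue 4 were at least 2-fold below knockout, the same 3 and Pdk1 (2.94% of all genes), and 0 were above it (0.715%). Pfkp alone was at least 2-fold lower in TAFH-deleted than in wild-type rescue (5.94% of all genes), and 0 were higher (2.6%). In the wild-type rescue against control 0 passed in either direction, against 0.166% higher and 4.63% lower over all genes. The first 3 of these comparisons share the knockout libraries, so a gene that is high in knockout enters each of them.

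Wild-type rescue had 30 of 39 genes below knockout, with a median difference of -0.22 against -0.036 over all genes. Abundant genes as a whole shifted in the same direction by less, as given below. TAFH-deleted rescue had 36 of 39 below knockout, with a median of -0.31 against 0.033. Against control, the medians of the clones were 0.11 and 0.053 in the wild-type rescue and 0.049 and -0.16 in the TAFH-deleted rescue. TAFH-deleted clone 2 stood apart, with 14 of 39 genes above control where the other 3 clones had 23 to 28. It was the lowest of all 8 libraries for 17 of 39 genes (43.6%), against 23.3% of all genes. Among those were Hif1a, Slc2a1, Slc16a1, Pdk1, Ldhb and 8 of the 12 other hypoxia response genes. The direct comparison of the rescue forms had 15 genes higher and 24 lower in the TAFH-deleted rescue, with a median of -0.17 that became -0.0345 without clone 2.

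Many of these genes are abundant, and the FPKM of abundant genes in this table may be capped. Of all 12025 tested genes 1 (Tpm1, with 10 transcripts summed) exceeded what 1 fragment per start position on each strand would give, a level of 129 FPKM in control and 150 in knockout for a transcript of 2 kb. The limit is thus higher in knockout than in control. Actb, an abundant gene outside the set, was at 94.4 and 93.9 FPKM in control and 111 and 112 in knockout. It was at 95.3 and 95.4 in the wild-type and 113 and 100 with TAFH-deleted TAF4. Its ratio of knockout to control was 1.18, as for Adm. Of Adm's possible read starts, 61.0% and 59.2% were in use in control and 61.0% and 60.8% in knockout. The part of the limit in these ratios was not tested. Whether duplicate reads were removed is not given in the sources used here. In 24 of the 39 genes at least 20% of the possible read starts were in use in some library, and in 5 over 50%. Over all tested genes the share with at least 20% in use was 45.3%. Of the 24 genes 87.5% were higher in knockout than in control, against 55.0% of all genes with such use. In the remaining 15 that share was 73.3%, against 37.0% of all genes with less use. For wild-type rescue against knockout the medians were -0.22 against -0.10 with such use and -0.20 against 0.054 with less. Among these 24 genes both knockout libraries were the highest for 17 (70.8%), against 11.6% of all genes with such use. Among the other 15 it was 8 (53.3%), against 6.86%, with Egln3, whose order the filter fixed, among the 8. After each value was raised to what random placement of reads on starts would imply, a calculation chosen after the data were seen, 21 of 39 (53.8%) kept that order, against 8.14% of all genes. Slc16a3, Car9 and Egln3 were in the group with less than 20% of starts in use.

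**Figure D4:**
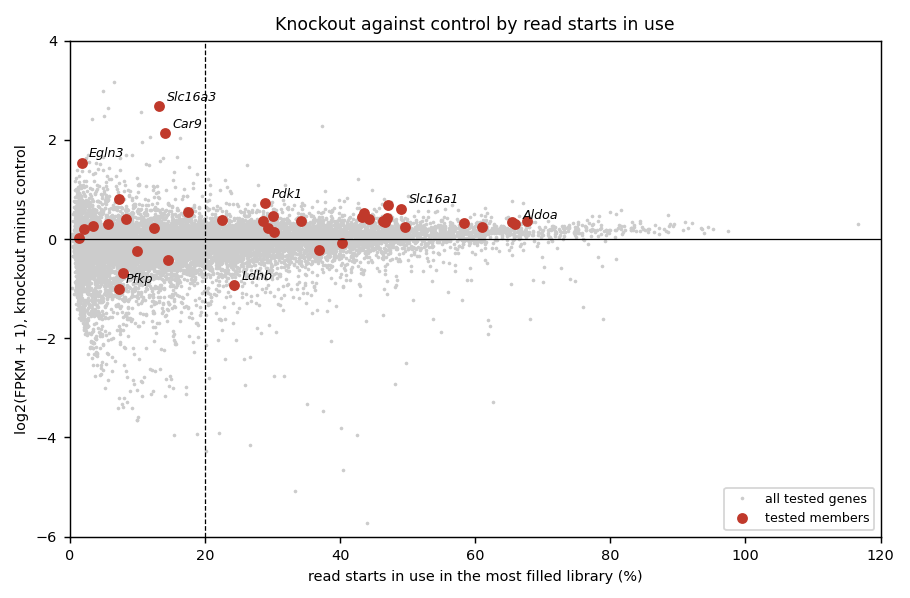
Log2(FPKM + 1) of knockout minus control (y axis) against the percent of possible read starts in use in the most filled library (x axis, above 100 for 1 gene whose transcripts were summed) for 12025 tested genes (grey) and the 39 members (red); the dashed line marks 20%. Slc16a3, Car9 and Egln3 lie left of the line at 2.68, 2.13 and 1.54, and the spread of all genes narrows to the right.

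The authors' deposited table gives its own test of transcripts, with their q-values. It draws on the same control and knockout pairs, which differ by less than sampling noise and count as 1 sample each in the limma fit. How that test treated the replicates is not given in the sources used here. In knockout against control it calls 37 of 49 tested transcripts of these genes, 32 higher and 5 lower, against 53.8% of all transcripts. In wild-type rescue against knockout it calls 21 of 51, 5 higher and 16 lower, against 25.8%. In TAFH-deleted rescue against knockout the authors' deposited table calls 3 of 52, all lower, against 0.957%. They are transcripts of Slc16a3 (q = 0.00319), Egln3 (q = 0.0213) and Car9 (q = 0.0250).

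Genes next to these in the same pathways were followed from lists chosen by function, with earlier results of these data known. Of 24 tested further hypoxia targets, 19 were higher and 5 lower in knockout than in control (median 0.28), and 21 were lower than knockout in the wild-type and 23 in the TAFH-deleted rescue. Pdgfb, a growth factor chain, was at 8.08 and 8.70 FPKM in control, 24.2 and 25.6 in knockout, 9.90 and 8.86 in the wild-type and 14.5 and 15.8 with TAFH-deleted TAF4. Angptl4, a lipase inhibitor, was at 85.3 and 85.6, 118 and 119, 101.0 and 96.7, and 66.2 and 33.9. Stc2, a secreted glycoprotein, went against the list, at 21.3 and 21.1 in control and 5.78 and 6.25 in knockout. Car12, a carbonic anhydrase like Car9, was at 5.41 and 5.69 in control, 2.58 and 2.48 in knockout, 0.233 and 0.219 in the wild-type and 4.25 and 3.10 with TAFH-deleted TAF4. Car12 passed limma's test as higher in TAFH-deleted than in wild-type rescue (adjusted p = 0.0443). In that comparison limma called 0 genes with no filter on low values and 0 without either wild-type clone, so this call is lost there.

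The HIF machinery was mixed in direction. Of 14 tested components 10 were higher and 4 lower in knockout (median 0.12). Arnt2, a partner subunit of HIF in the nervous system, was at 21.9 and 22.5 FPKM in control, 6.22 and 6.07 in knockout, 10.7 and 7.91 in the wild-type and 10.2 and 6.54 with TAFH-deleted TAF4, whereas Arnt was at 33.0 and 32.7 in control and 36.3 and 35.95 in knockout. Of 10 tested other glycolysis genes 6 were higher and 4 lower in knockout, and of 13 genes of pyruvate entry into mitochondria 5 and 8 (median -0.018). Pgam2, the muscle phosphoglycerate mutase, was at 8.17 and 6.75 in control and 17.7 and 16.7 in knockout. Of 10 tested genes of the Myc and Max network 3 were higher and 7 lower.

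The pentose phosphate pathway, which branches from glycolysis at glucose 6-phosphate, had a different order. Of its 9 genes 4 were higher and 5 lower in knockout. In the wild-type rescue 8 were lower than in knockout (median -0.39, against -0.036 over all genes). In the TAFH-deleted rescue 9 of 9 had means above knockout, but by 0.0024 to 0.51 with a median of 0.097. In its clones 1 and 2 there were 8 and 7 of 9 higher, and 55.7% of all genes were higher in that comparison. G6pdx, the X-linked first enzyme of the pathway, was at 42.9 and 44.5 FPKM in control, 54.5 and 54.5 in knockout, 34.3 and 31.6 in the wild-type and 55.2 and 54.0 with TAFH-deleted TAF4. G6pdx passed limma's test as higher in TAFH-deleted than in wild-type rescue (adjusted p = 0.0467), beside a median of 0.59 over all X-linked genes in that comparison. The part of the X-linked median in this value was not tested. The G6pdx call, like that of Car12, is lost with no filter and without either wild-type clone.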

How the data were processed

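The 40 genes and the lists beside them were chosen with earlier results of these data known. The submitters' processing notes list CASAVA 1.8 and the programs TopHat, Cufflinks and Cuffdiff, with mm9 as the genome build, and options and other versions are not given in the sources used here. The authors deposited FPKM values per RefSeq transcript and library, with p-values and q-values of their own for 3 comparisons, per the file headers. FPKM were summed per gene. Low values were whole multiples of a fragment unit computed from the transcript length less 204 bases, for 100% of them in 12350 genes within a tolerance of 0.05, which gave the implied totals and the read starts in use.

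The test was limma 3.58.1 (R 4.3.3), with trend, on log2(FPKM + 1) of 12025 genes that had at least 1 FPKM in at least 2 libraries and a longest transcript of at least 300 bases. All groups were fitted together, with control and knockout averaged to 1 sample each (6 samples, 2 residual and 2.15 prior degrees of freedom). The 5 comparisons were two-sided, adjusted by Benjamini-Hochberg over all tested genes at 0.05, and a fold on this scale understates the change of low genes. The procedure was tested on simulated data. Values in every library were printed for members that passed the test or that had a group mean of at least 5 FPKM and 2 group means at least 1 apart on the log2 scale, which are Slc16a3, Car9, Pdk1, Ldhb and Pfkp. The other members were described after their values were seen. Genes of other lists were named by the same rule, at most 4 per list, apart from Arnt. Shared 36-base stretches were counted in GENCODE M21 transcripts, leaving out annotations that overlap the gene itself. The ± of a gene's difference is limma's SE, which rests on the spread between the rescue clones and on limma's prior. Control and knockout add no spread of their own to it. The ± of a chi-square is the SE over genes. Alternatives were another pseudocount, no filter, short transcripts kept, quantile normalization, libraries counted separately, a replicate block, only the 2 groups compared, the highest transcript only, genes with under 20% of read starts in use, and each library left out.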

Additional observations from a re-analysis of the deposited data

Results flagged for a closer look

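Slc2a3 and Pfkfb3 drew attention because both wild-type rescue clones lay above both knockout libraries and both TAFH-deleted clones below them. For Slc2a3 the wild-type clones were at 1.59 and 1.72 FPKM and the TAFH-deleted clones at 0.448 and 0.459, a log2 difference between the forms of -0.87 ± 0.15 with an adjusted p of 0.067 in limma. For Pfkfb3 they were at 10.1 and 9.90 and at 4.95 and 4.97, a difference of -0.88 ± 0.16 with an adjusted p of 0.070 in limma. Slc2a3 passed the filter on low values through the wild-type clones alone, so its test supports nothing. Neither passed the threshold, and with all 8 libraries counted separately limma called both.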

How the results depend on the processing

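In the 5 comparisons, taken in the order knockout against control, wild-type rescue against knockout, TAFH-deleted rescue against knockout, TAFH-deleted against wild-type rescue and wild-type rescue against control, limma called none of these genes in the reported fit. With all 8 libraries counted separately it called 16, 14, 9, 9 and 5, beside 2857, 2998, 1074, 4566 and 2429 of all 12025 tested genes. With the replicate block added it called 13, 13, 6, 9 and 3, beside 2019, 2232, 461, 3921 and 1622. Same-numbered libraries did not deviate together (correlations from -0.078 to 0.057, with -0.078 between the rescue groups). For control and knockout, whose pairs differ by less than sampling noise, this cannot show whether the numbers pair libraries. With the samples of the 2 compared groups alone, limma called more of these genes, and more of all genes, in wild-type rescue against knockout. The same held in wild-type rescue against control, and knockout against control could not be fitted. Leaving out each library in turn gave 0 to 24, 0 to 19, 0 to 24, 0 to 19 and 0 to 9 calls, above 0 where a TAFH-deleted clone was left out, which leaves 1 residual degree of freedom and assumes that the remaining clone varies like the wild-type clones. The genes called over all then also increased, from 0 to 2712 without clone 1 and 2661 without clone 2 in knockout against control. No filter on low values gave 213 genes called there and 264 in wild-type rescue against control, none of them members. It gave 0 in TAFH-deleted against wild-type rescue, where the reported fit called 315 and leaving out either wild-type clone also gave 0.

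The median difference of the 39 genes kept its sign in every alternative run. It was 0.25 for knockout against control on genes with under 20% of read starts in use. For TAFH-deleted against wild-type rescue it was -0.28 after quantile normalization, -0.33 on genes with under 20% of read starts in use, -0.29 after the correction for read starts, which was added after the data were seen, and between -0.24 and -0.0345 as libraries were left out. For TAFH-deleted rescue against knockout it ran from -0.35 to -0.22 as libraries were left out, and for wild-type rescue against control it was 0.18 after quantile normalization. Car9 reversed in TAFH-deleted against wild-type rescue, from -0.85 to 0.15 without TAFH-deleted clone 2, and ran from -1.86 to 0.15 over all libraries left out. The cause of these changes was not tested.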
